A study of Mus musculus with 6 samples.

Results

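The cytosolic ribosomal protein genes were followed in the hippocampus of mice with and without IκBα in the brain. They were taken as the array probe sets that carry a single gene symbol made of Rpl, Rps or Rplp and a number, with 1 optional letter of a, x or l and further digits after it. Where a gene had several such probe sets, the brightest by its 6-array mean stood for it. This gave 48 genes out of 18193 genes with a single-symbol probe set, of which 26 encode proteins of the large subunit and 22 of the small subunit. A further 28 ribosomal protein symbols, among them Rpl3, Rpl5, Rpl10 and Rplp1, stood here only on probe sets shared with other symbols and were therefore not among the 48.

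Total RNA came from the hippocampus of mice aged 2 to 3 months. The 3 IκBα-deficient animals carried 1 floxed and 1 null allele of the IκBα gene together with Nestin-Cre (IκBαfl/-;Nestin-Cre). The 3 littermate control animals carried the same floxed and null alleles without the recombinase (IκBαfl/-), so both groups had 1 inactive germline copy. The design describes the animals as 3 pairs of knockout and littermate control, and the labels do not say which arrays form a pair. Nestin-Cre acts in the progenitors of neurons and of most glia, so microglia, vessels and meninges are expected to keep the floxed copy, and Cre itself was absent from the controls. Values are RMA log2 levels, on which 1 unit is a doubling. Each difference is the IκBα-deficient mean minus the control mean, with its standard error after the ± sign. This is the moderated standard error of limma, which draws partly on the variance of all genes. After a group mean level, ± gives the SD of its 3 arrays. Where 3 values stand against 3 others, they are control arrays 1 to 3 and then IκBα-deficient arrays 1 to 3.

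The cytosolic ribosome is built from ribosomal RNA and one copy each of most of its proteins, with the acidic stalk proteins Rplp1 and Rplp2 held by Rplp0 as the main exception. Its protein genes are transcribed at high rates in nearly every cell. Many of their mRNAs begin with a C followed by a run of pyrimidines, the 5′ terminal oligopyrimidine tract, through which the mTOR pathway and Larp1 control their translation. IκBα, encoded by Nfkbia, holds NF-κB in the cytoplasm, and Rps3 has been described as a partner of NF-κB in the nucleus.

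The sequence around the annotated start was read for the 42 of 48 members that matched an entry of RefSeq's promoter table (GRCm38.p6), which left Rpl7, Rpl8, Rps14, Rps20, Rps29 and Rps4l. The 6 starts printed here show where a rule for the pyrimidine tract did or did not find a match, in genes whose values are described further on. Each is 30 bases long, from 20 bases before the start to 10 bases after it, 5′ to 3′ on the gene's own strand, with the tract in capitals. A tract was counted as a C followed by at least 5 bases that are each C or T, on the sense strand, beginning no more than 20 bases to either side of the start. The rule does not require the tract to lie at the 5′ end of the mRNA. That of Rpl6 begins at -9 relative to the annotated start and ends before it. A gene without a match lacks a tract only under this rule and this annotated start.
Rplp0 at chr5:115559447-115559476, plus strand: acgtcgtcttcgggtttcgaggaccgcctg
Rplp2 at chr7:141447631-141447660, plus strand: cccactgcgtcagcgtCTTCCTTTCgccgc
Rpl6 at chr5:121204481-121204510, plus strand: gatcttggtcaCCTCCCgtcattgcttata
Rpl38 at chr11:114668560-114668589, plus strand: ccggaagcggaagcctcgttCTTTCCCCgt
Rps18 at chr17:33955656-33955685, minus strand: acttatacgtcacttccgCTCTCTCTTCCa
Rps6 at chr4:86857358-86857387, minus strand: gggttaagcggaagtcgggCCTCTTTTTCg

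Such a tract was found in 27 of the 42 members, or 64.3%, against 34.2% of 27025 genes searched in the same way. On the opposite strand the search was looser, as it also counted runs that began outside the window and reached into it. It gave 9 members, or 21.4%, against 39.1% of all genes, so the strands are not directly comparable. The start of Rpl38 falls on the first C of its tract, and that of Rplp0 has none in the window. The letters CCGGAAG, a core bound by ETS factors such as GABP, stood on either strand in the window from 250 bases before to 50 bases after the start in 20 members, or 47.6%, against 9.93% of all genes. The letters AAGATGGC, of the type bound by YY1, were found in 4 members, or 9.52%, against 3.19%. TATAAA was found in 6 members, or 14.3%, against 15.7%, and the κB consensus of NF-κB in 3 members, or 7.14%, against 9.55%. Overlap between these motifs was allowed, and a match of letters is not a bound site.

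The targeted gene was checked first. Nfkbia was at 10.39, 10.35 and 10.31 in the control arrays and at 9.06, 9.13 and 8.66 with the deletion. All deficient arrays lay below all control arrays, with a difference of -1.40 ± 0.12 (SE, n = 3 and 3, adjusted p = 0.057 in limma over all genes, which misses 0.05). The position of this probe set relative to the deletion was not given here. On 1 array the RNA-quality controls stood apart. The mean gap between the 3′ and 5′ control probe sets of Actb and Gapdh was 2.02 log2 units on IκBα-deficient array 2, called array 2 from here on, and 0.56 to 0.73 on the other 5 arrays. Over all probe sets other than controls, array medians were 6.08 to 6.12 and any pair of arrays correlated at 0.992 to 0.998. All 12 measured choroid plexus markers were higher in the deficient group (median difference 1.44), with a mean level of 7.73 to 8.71 against 5.73 to 7.85 in controls. All 11 meningeal markers were higher too (median 0.50, or 9 of 11 and 0.18 without array 2), with a mean of 8.58 on array 2 and 6.91 to 7.51 on the others. Of 10 hippocampal neuron markers, 2 were higher and 8 lower (median -0.084), at a mean level of 9.28, 9.21 and 9.32 in the deficient arrays and 9.26 to 9.43 in controls. At an unadjusted p of 0.05 in limma, Tdo2 (-0.38) and C1ql2 (-0.28) were lower and Neurod6 (0.24) was higher. Of 6 astrocyte markers 4 were higher and 2 lower (median 0.043). Aqp4 (0.45) and Gfap (0.30) were above all controls in each deficient array, at an unadjusted p of 0.000312 and 0.00504 in limma. Slc1a2 (-0.11) was below all controls in each deficient array, at an unadjusted p of 0.0835 in limma. None of these markers passed an adjusted p of 0.05, and their part in the results below was not tested. RMA values do not reach 0, so no marker was absent by value. In bulk tissue fewer cells of a type and less RNA per cell cannot be told apart.

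No ribosomal protein gene of the 48 passed the test between IκBα-deficient and control hippocampus. The count at an adjusted p of 0.05 in limma was 0, beside 0% of all 18193 genes, and the lowest adjusted p of a member was 0.963. At an unadjusted p of 0.05 the count was also 0 in both directions, where 3.33% of all genes were higher and 1.39% lower in the deficient group. By sign alone 14 members were higher and 34 lower, with a median difference of -0.023, beside 0.006 over all genes. A total of 40 members differed by less than 0.1 either way, as did 70.8% of all genes.

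The intervals bound what these arrays could show. Standard errors ran from 0.06 to 0.17 with a median of 0.07. Both they and the intervals are moderated, so in genes with little spread they exceed what the gene's own arrays would give. The SE of Rps26 was 0.06, although its SDs were 0.012 in controls and 0.014 in the deficient group. The 95% interval of the difference lay within 0.3 either way for 42 of 48 members, the exceptions being Rpl12, Rpl27a, Rpl39l, Rplp0, Rps2 and Rps4l. Over all members the intervals reached from -0.61 for Rplp0 to 0.51 for Rpl27a. An interval of this width does not show that levels were equal.

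The signs turned with 1 array. Without IκBα-deficient array 2, 31 members were higher and 17 lower, and the median difference was 0.010, beside -0.004 over all genes. Again 0 members passed an adjusted or an unadjusted p of 0.05, while 2.68% of all genes were higher and 2.5% lower at the unadjusted level. Differences under 0.1 either way were then seen in 45 members, and Rpl12, Rpl39l and Rps27l were the other three. With the 3′/5′ gap of each array as a covariate the median over members was 0.009, and with the choroid plexus level as a covariate it was -0.025. The gap was 2.02 on array 2 and 0.56 to 0.73 on the others, so the gap fit is close to leaving that array out.

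**Figure D1:**
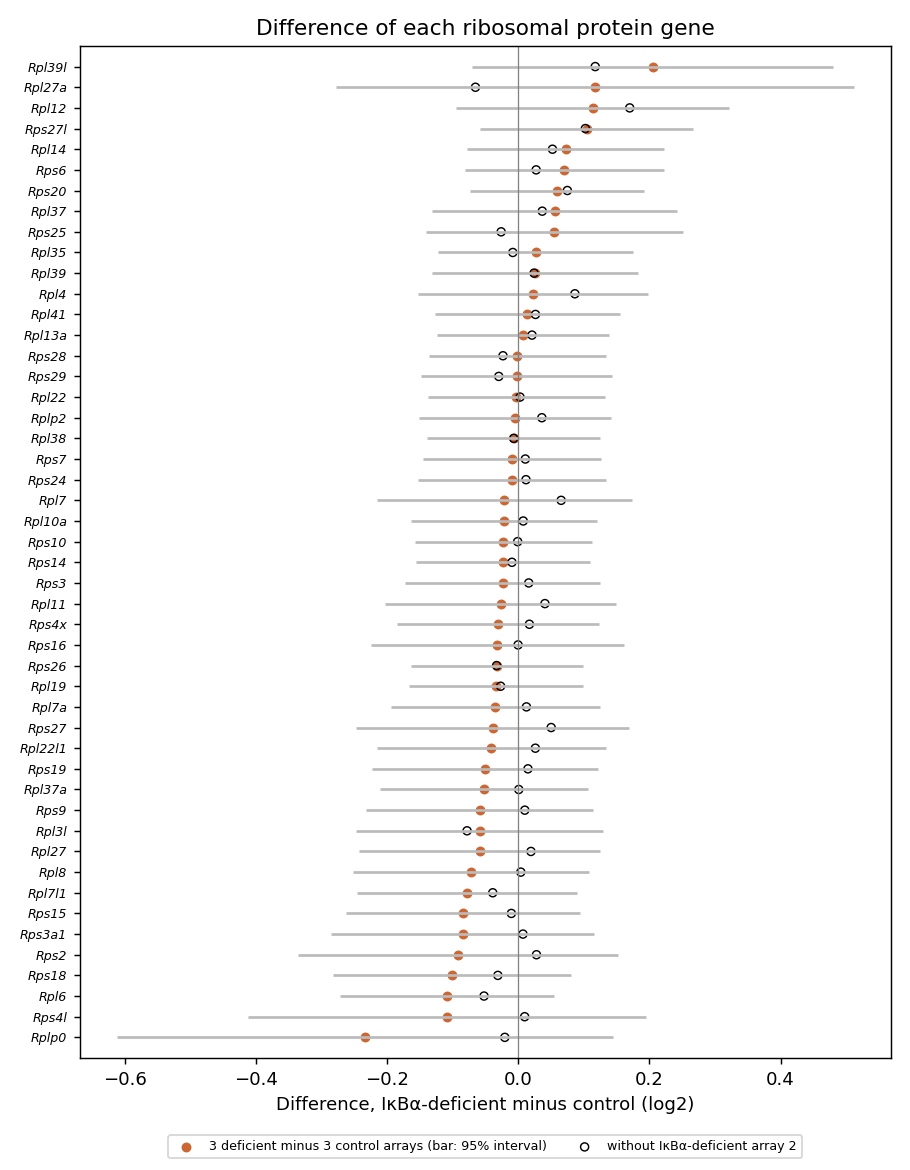
Difference in log2 level (IκBα-deficient minus control) of each of the 48 ribosomal protein genes, from all 6 arrays with its 95% interval and again without IκBα-deficient array 2. All intervals include 0, and the point of Rplp0 moves from -0.23 to -0.02.

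Most members sat near the top of the array's scale. The mean over 6 arrays was 12 or more for 34 members, all at or above the 96.3 percentile of genes, while 2 lay between 10 and 12 and 12 below 10. Of those 12, 9 (Rpl37, Rps6, Rps25, Rpl27a, Rpl12, Rps27, Rpl14, Rpl39 and Rps16) also had their symbol on a shared probe set with a mean of 12.54 to 13.98. The division at 12 was set after the values were seen. Among the 34 bright members 5 were higher and 29 lower (median -0.026), which became 22 higher and 12 lower (median 0.009) without array 2. Among the 14 below 12, 9 were higher and 5 lower (median 0.055). Levels of different probe sets cannot be compared, so these classes order signals and not transcript numbers.

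Within the groups the bright ribosomal protein genes varied little among controls. The median SD over members was 0.029 in the control group and 0.087 in the deficient group, where the SD was the wider in 40 of 48. Between deficient arrays 1 and 3 alone it was 0.025. The corresponding medians over all genes were 0.077, 0.102 and 0.064. For the 34 bright members the median control SD was 0.018, beside 0.035 for other genes with a mean of 12 or more, whose median level was lower. For the 14 members below 12 the median control SD was 0.076. The median offset of the members from their own 6-array median was between -0.002 and 0.006 on 5 arrays and -0.066 on IκBα-deficient array 2.

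**Figure D2:**
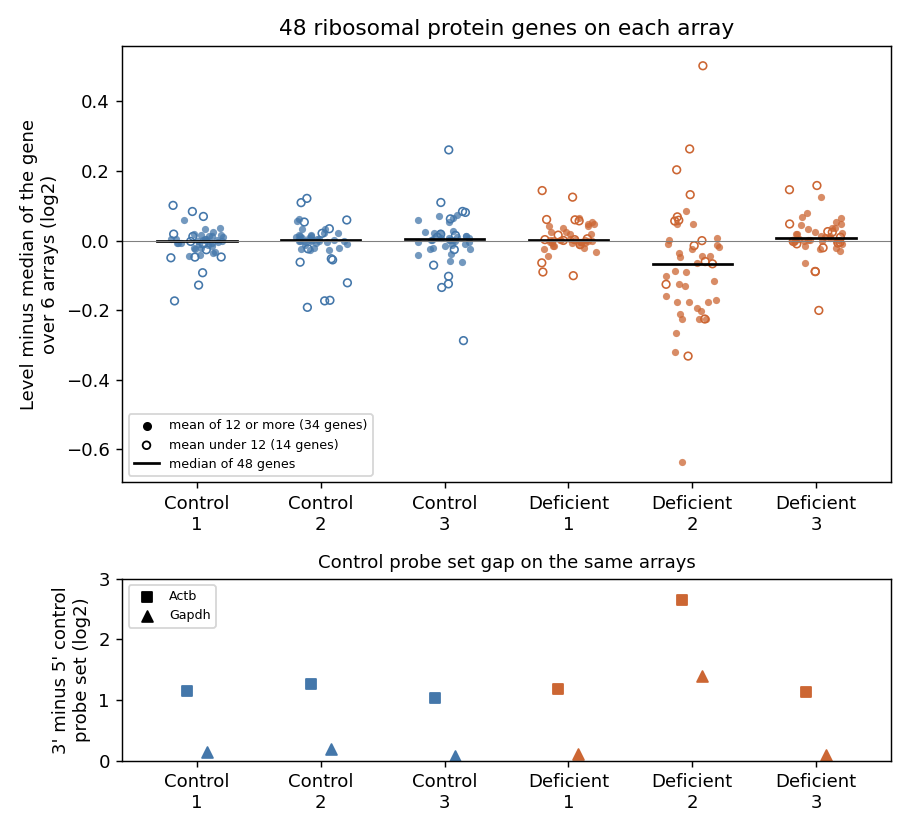
Offset of each of the 48 ribosomal protein genes from its own median over the 6 arrays (log2 units) on every array, filled for a mean level of 12 or more, with a line at the median and, in the lower panel, the Actb and Gapdh 3′/5′ gaps (log2 units). The offsets centre on 0 on 5 arrays and on -0.066 on IκBα-deficient array 2, whose gaps are 2.65 and 1.40.

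IκBα-deficient array 2 held the lowest of the 6 values for 29 members, or 60.4%, against 18.1% of all genes. For mitochondrial ribosomal protein genes, described further on, the share was 69.7%. Each of the other arrays was lowest for 2 to 6 members. Array 2 was also the highest for 8 members, and for 5893 of all 18193 genes, so over all genes it was the highest more often than the lowest. Among the 34 bright members it was lowest for 26, or 76.5%. Among other genes with a mean of 12 or more it was lowest for 166 of 678, or 24.5%. Those genes were not matched for brightness, with median levels of 12.59 to 12.62 on the arrays against 13.17 to 13.31 for the bright members. Below a level of 12, array 2 was lowest for 3 of 14 members, or 21.4%. On 19 of 48 members it lay below the other 5 arrays by more than their whole range, against 6.6% of all genes. The same array also had the widest 3′/5′ gap and the highest mean of meningeal markers, and the part of either in these values was not tested. The 8 bright members for which it was not lowest were Rpl22, Rpl35, Rpl38, Rpl41, Rps20, Rps26, Rps28 and Rps29.

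**Figure D3:**
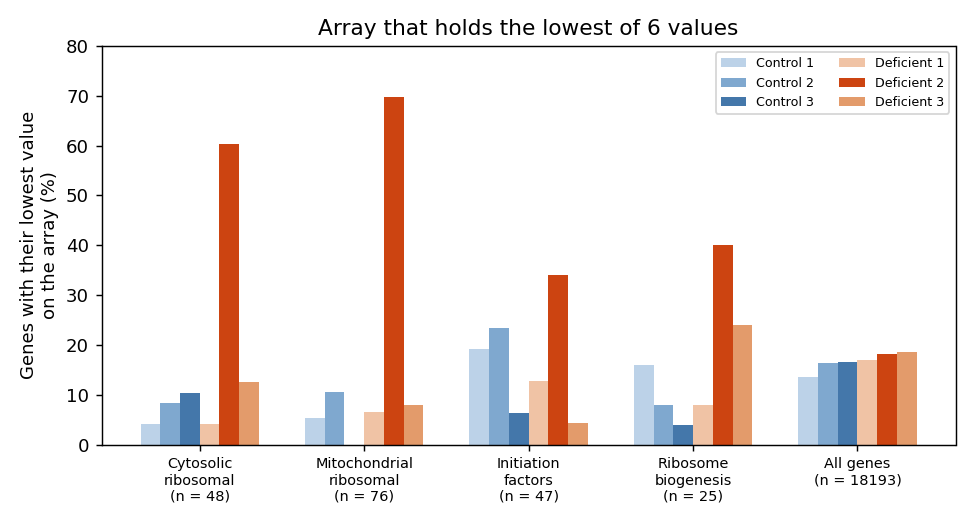
Share of genes (percent) whose lowest value of the 6 arrays falls on each array, for cytosolic and mitochondrial ribosomal protein genes, initiation factors, ribosome biogenesis genes and all genes. IκBα-deficient array 2 takes 60.4% of the cytosolic and 69.7% of the mitochondrial ribosomal protein genes, and 18.1% of all genes.

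Large subunit genes were 10 higher and 16 lower, with a median of -0.014 (0.016 without array 2). The P-stalk protein Rplp0, the uL10 protein that anchors the stalk to the ribosome, was at 12.78, 12.76 and 12.85 in controls. In the deficient group it was at 12.77, 12.13 and 12.78. The groups overlapped, and the low value of array 2 made the difference the most negative among the members: -0.23 ± 0.16 (SE, n = 3 and 3), which is 1.18-fold lower, with a 95% interval of -0.61 to 0.14. Without that array the difference was -0.02. With the 3′/5′ gap as a covariate, a fit close to leaving array 2 out, it was -0.026.

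Rplp2, one of the acidic stalk proteins that recruit translation factors, was at 13.60, 13.59 and 13.58 in control arrays and at 13.62, 13.51 and 13.63 in deficient arrays. The groups overlapped with array 2 lowest, and the difference was -0.0048 ± 0.063 (SE, n = 3 and 3). It was 0.036 without array 2. Rplp1, its partner in the stalk, is not among the 48.

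Rpl6, a protein of the large subunit, was at 12.97, 13.03 and 13.04 in controls. It was at 12.97, 12.79 and 12.95 in deficient arrays. All deficient values lay below all control values, although control 1 and deficient 1 are equal at this rounding, with a difference of -0.11 ± 0.07 (unadjusted p = 0.164 in limma). It was -0.052 without array 2. Groups without overlap in this direction were seen for 2 members, Rpl6 and Rps26, and for 3.82% of all genes.

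Rpl38, known for its part in translating Hox mRNAs in the embryo, was among the narrowest. It was at 14.00, 13.97 and 13.96 in control arrays and at 13.96, 13.97 and 13.98 in deficient arrays. Rpl13a, a part of the interferon-γ-activated inhibitor of translation, was at 13.87, 13.88 and 13.87 against 13.89, 13.85 and 13.89. On the kept probe sets the groups overlapped in both genes, and array 2 lay close to the rest. Another probe set of Rpl13a was at 13.11 on array 2 and at 13.30 to 13.35 on the others. The 4 probe sets of Rpl13a stood at -0.210 to -0.010 on array 2 relative to the mean of the other arrays. Rpl11, which binds Mdm2 when free of the ribosome, was at 12.81, 12.80 and 12.75 against 12.86, 12.62 and 12.79, a difference of -0.027 ± 0.08 (0.041 without array 2).

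Among large subunit genes with positive differences, Rpl27a, Rpl12 and Rpl14 were dim on their own probe sets. Rpl27a was at 8.10, 7.91 and 8.36 in control arrays and at 8.10, 8.60 and 8.01 in deficient arrays, with array 2 the highest. Its difference was 0.12 ± 0.17 and turned to -0.065 without that array. Rpl12 was at 7.70, 7.62 and 7.87 against 7.85, 7.73 and 7.95, overlapping, with a difference of 0.11 ± 0.09 (0.17 without array 2). Rpl14 was at 7.59, 7.46 and 7.55 against 7.56, 7.64 and 7.60, a difference of 0.072 ± 0.06.

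Small subunit genes were 4 higher and 18 lower, with a median of -0.028 (0.010 without array 2). Rps18, a protein of the head of the small subunit, was at 12.78, 12.69 and 12.78 in control arrays and at 12.70, 12.51 and 12.74 in deficient arrays. The groups overlapped and array 2 was lowest, and the difference of -0.10 ± 0.08 was -0.031 without it. The 6 probe sets of Rps18 differed by -0.152 to 0.117, so its sign depended on the probe set. Rps2, near the mRNA entry of the small subunit, was at 13.27, 13.29 and 13.35 against 13.29, 12.97 and 13.37. The value of array 2 stood alone, and the difference of -0.092 ± 0.11 became 0.028 without it.

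Rps3a1, an eS1 protein beside the mRNA exit, was at 13.62, 13.65 and 13.64 in control arrays and at 13.66, 13.37 and 13.63 in deficient arrays. Array 2 lay below the other 5 by more than their whole range, and the difference moved from -0.085 ± 0.09 to 0.0071 without that array. Rps4l, a copy of the X-linked Rps4x, was at 10.18, 9.91 and 10.19 against 9.98, 9.75 and 10.22. Its groups overlapped with wide spread in both, at -0.11 ± 0.13 (0.010 without array 2).

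Rps3, the KH-domain protein described with NF-κB, was at 13.25, 13.27 and 13.30 in control arrays and at 13.27, 13.17 and 13.30 in deficient arrays. The groups overlapped, with a difference of -0.024 ± 0.064 and a 95% interval of -0.17 to 0.12. Its 3 probe sets differed by -0.161 to 0.048. Rps6, the target of S6 kinase, was at 9.28, 9.25 and 9.31 against 9.32, 9.44 and 9.29 on its own probe set. Here array 2 was the highest, and the difference was 0.070 ± 0.07 (0.027 without array 2).

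Rps14 and Rps19 are the small subunit genes lost in the human 5q- syndrome and most often mutated in Diamond-Blackfan anaemia, respectively. Rps14 was at 13.61, 13.60 and 13.58 against 13.57, 13.54 and 13.60, a difference of -0.023 ± 0.06. Rps19 was at 12.56, 12.58 and 12.58 against 12.55, 12.39 and 12.62, a difference of -0.051 ± 0.07 that became 0.015 without array 2. The groups overlapped in both. Rps26, which contacts mRNA just upstream of the start codon, was at 12.77, 12.79 and 12.79 against 12.77, 12.76 and 12.74. Its deficient values lay just below the controls, again with array 1 of each group equal at this rounding, and the difference was -0.032 ± 0.06, or -0.033 without array 2.

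Rps20, named after its values were seen, was the member whose deficient arrays all lay above the controls, a pattern of 5.94% of all genes. It was at 13.14, 13.16 and 13.15 in control arrays and at 13.22, 13.18 and 13.23 in deficient arrays. The difference was 0.058 ± 0.06, or 0.075 without array 2, and all 4 of its probe sets were higher, by 0.020 to 0.104. It did not pass at an adjusted or an unadjusted p of 0.05 in limma.

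Paralogs were set beside their partners. Of the partners, Rpl39 and Rps27 were dim on their own probe sets, and their symbols also stood on shared ones with means of 13.71 and 12.54. Rpl39l, a copy best known from the testis, had the lowest p of the members. It was at 4.20, 4.49 and 4.09 in control arrays and at 4.38, 4.64 and 4.37 in deficient arrays, overlapping through control array 2. The difference was 0.21 ± 0.12, or 1.15-fold, with an unadjusted p of 0.124 and a 95% interval of -0.07 to 0.48, at a level where RMA compresses differences. Without array 2 it was 0.12. Rpl39 was at 7.25, 7.26 and 7.09 against 7.23, 7.23 and 7.22, a difference of 0.025 ± 0.07. Rps27l, a p53-inducible copy of Rps27, was at 10.51, 10.58 and 10.43 against 10.68, 10.61 and 10.53. Its groups overlapped, and the difference was 0.10 ± 0.07 on all arrays and 0.10 without array 2. Rps27 was at 7.70, 7.61 and 7.56 against 7.69, 7.41 and 7.66, a difference of -0.039 ± 0.09 (0.050 without array 2).

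Rpl22l1, the copy that Rpl22 represses, was at 12.57, 12.61 and 12.55 in control arrays and at 12.63, 12.40 and 12.58 in deficient arrays. Rpl22 was at 12.50, 12.47 and 12.49 against 12.52, 12.47 and 12.45. The groups overlapped in both, at -0.041 ± 0.08 (0.026 without array 2) for Rpl22l1 and -0.0031 ± 0.058 for Rpl22. Rpl7l1, an assembly factor related to Rpl7, was at 9.30, 9.41 and 9.43 against 9.28, 9.22 and 9.39, a difference of -0.078 ± 0.07 (-0.039 without array 2). Rpl7 was at 12.81, 12.78 and 12.79 against 12.85, 12.60 and 12.87, a difference of -0.022 ± 0.08 (0.065 without array 2). Rpl3l, the striated-muscle copy of Rpl3, was near the floor at 3.76, 3.86 and 3.82 against 3.87, 3.79 and 3.61. Rpl3 and Rpl10 were not measured alone, and Rpl10l was not analysed here.

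**Figure D4:**
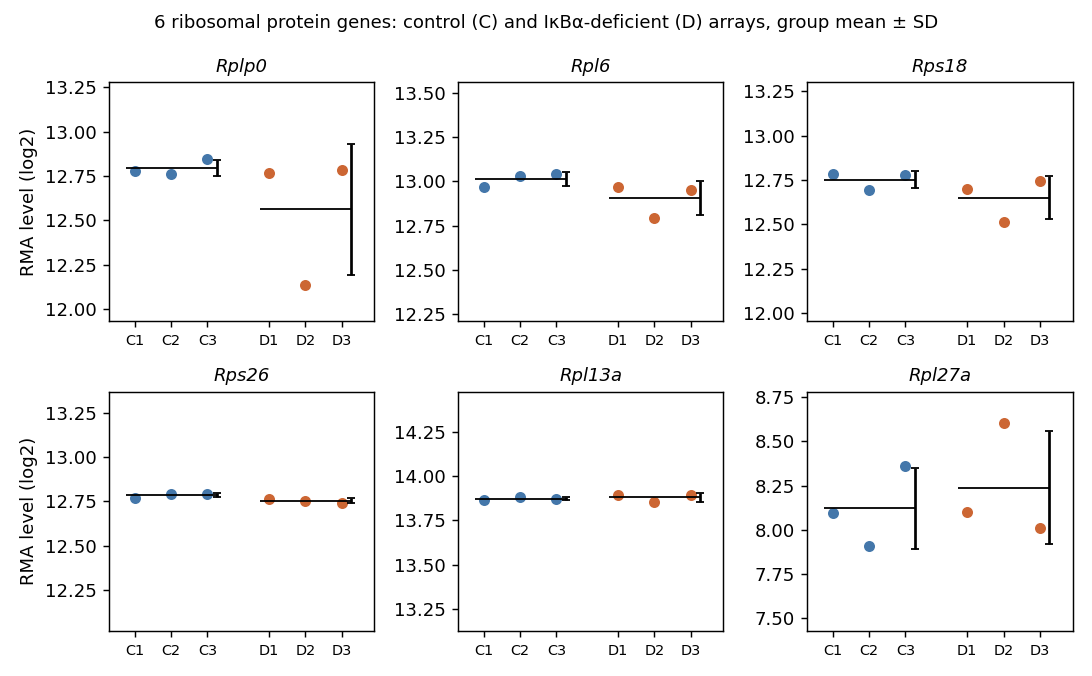
Log2 levels on the 6 arrays of single ribosomal protein genes, for control (C1 to C3) and IκBα-deficient (D1 to D3) arrays, with group means as lines and bars of 1 SD. Rplp0 stands low on D2 at 12.13, Rpl27a stands high there at 8.60, and Rps26 and Rpl13a are nearly level on the probe sets kept for them.

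The remaining bright members had differences between -0.084 for Rps15 and 0.026 for Rpl35. Rps15 was at 13.18, 13.19 and 13.21 against 13.18, 12.96 and 13.19. Rpl8, part of the core around the peptidyl transferase centre, was at 12.81, 12.83 and 12.82 against 12.82, 12.60 and 12.82. Rpl27 was at 12.09, 12.06 and 12.09 against 12.09, 11.87 and 12.11. On the kept probe sets of all 3 genes array 2 was the low value and the other 5 arrays were close together. Without it the differences were -0.011, 0.0038 and 0.019. The 3 probe sets of Rpl27 did not share this pattern. They differed by -0.059 to 0.145 and stood at -0.223 to 0.258 on array 2 relative to the mean of the other arrays. On the kept probe sets Rpl37a, Rps9, Rpl7a, Rps4x, Rpl10a, Rps10, Rps7, Rps24, Rpl19 and Rpl4 were also lowest on array 2. Their differences were -0.059 for Rps9 to 0.022 for Rpl4.

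Array 2 was the highest for other members. Rpl35, at the exit of the nascent-chain tunnel, was at 13.03, 13.00 and 12.95 in control arrays and at 12.96, 13.09 and 13.01 in deficient arrays. Rps28 was at 13.89, 13.90 and 13.89 against 13.87, 13.93 and 13.87, and Rps29 at 14.20, 14.28 and 14.25 against 14.24, 14.29 and 14.18. In these 3 genes the groups overlapped. Rpl41 differed by 0.014, and the dim probe sets of Rpl37 and Rps16 by 0.055 and -0.032. Array 2 was neither the lowest nor the highest for these. Array 2 lay above the other 5 by more than their range for 2 of 48 members, Rps6 and Rps25, against 1273 of all 18193 genes. Rps25 was at 8.57, 8.52 and 8.60 against 8.49, 8.78 and 8.59.

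Probe choice mattered at this scale. The 48 genes had 103 single-symbol probe sets, and 23 genes had more than 1. Of these 23, 16 had probe sets of both signs. All sets were lower in Rpl37a, Rps10, Rps15 and Rps4x and higher in Rps6, Rps20 and Rps27l. Of the 48 kept probe sets, 32 are coded as matching related sequences, so ribosomal protein pseudogenes and near-identical copies can contribute to their signal. Array 2 was lowest on 44 of the 103 probe sets. The 3 probe sets of Rpl7 stood at -0.418 to -0.106 on array 2 relative to the mean of the other arrays, and the 3 of Rps29 at 0.052 to 0.063.

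The members were also divided by a match to the tract rule near the annotated start, as a description. The 27 with a tract had a median difference of -0.022 and were lowest on array 2 in 17 cases. The 15 without one had a median of -0.031 and were lowest there in 8 cases. Rplp0, with no match to the rule, and Rps18, with one, were both lowest on array 2, whereas Rpl38, whose start is the tract itself, was not.

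Other genes of translation were read in the same fit, and 0 genes passed an adjusted p of 0.05 in any of the lists. Of 6 ribosomal protein genes with other names, Rpsa and Fau were measured alone. Rpsa, also a laminin receptor, was at 13.10 ± 0.06 against 12.96 ± 0.17 (SD, n = 3 each), a difference of -0.14 that was -0.039 without array 2. Fau differed by -0.014, and by 0.010 without array 2. Both were lowest on array 2. Of 76 mitochondrial ribosomal protein genes, 16 were higher and 60 lower (median -0.057), and 53, or 69.7%, were lowest on array 2. Without that array 43 were higher and 33 lower (median 0.007). Mrpl14 was at 8.91 ± 0.04 against 8.75 ± 0.12 and Mrpl28 at 10.25 ± 0.06 against 10.12 ± 0.06, both without overlap and with unadjusted p of 0.0749 and 0.079 in limma. Groups lay below without overlap for 3 of the 76, beside 3.82% of all genes. Without array 2 Mrpl14 moved from -0.16 to -0.089 and Mrpl28 from -0.13 to -0.11.

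Translation factors were counted in the same way. Of 47 initiation factors 25 were higher and 22 lower (median 0.005), and array 2 was lowest for 16 and highest for 20. Eif1b was at 12.38 ± 0.06 against 12.26 ± 0.05, and Eif2a at 8.66 ± 0.04 against 8.77 ± 0.07, a difference of 0.11 that was 0.074 without array 2. Of 11 elongation factors and other mRNAs known for a terminal pyrimidine tract 4 were higher and 7 lower (median -0.037), with 8 lowest on array 2 and a median of 0.008 without it. Btf3, the nascent-chain factor, was at 11.18 ± 0.06 against 10.92 ± 0.42, a difference of -0.27 that became -0.025 without array 2. Nap1l1 differed by -0.16, and by -0.051 without array 2.

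Of 25 ribosome biogenesis genes 7 were higher and 18 lower (median -0.036, and 0.015 without array 2), with 10 lowest on that array. Riok2, a kinase of small subunit maturation, was at 8.64 ± 0.07 against 8.82 ± 0.10 and did not overlap. Its difference was 0.18 (unadjusted p = 0.0497 in limma), or 0.12 without array 2 (unadjusted p = 0.122 in limma). Riok2 was the 1 gene of the 25 under an unadjusted p of 0.05. Over all genes 3.33% were higher at that level and 5.94% lay above without overlap. Nob1, the nuclease that trims the small subunit's RNA, differed by -0.16. Of 11 regulators of ribosomal protein synthesis 3 were higher and 8 lower (median -0.020), and 4 were higher and 7 lower (median -0.042) without array 2, which was lowest for 3 and highest for 4. Tsc2, which restrains mTOR, was at 8.90 ± 0.06 against 8.59 ± 0.43, a difference of -0.31 that was -0.065 without array 2. Mtor differed by 0.067, and by 0.027 without array 2, its highest array.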

How the data were processed

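The authors deposited log2 values of 6 arrays, which per the submitters' processing notes come from RMA (version not given in the sources used here). RMA gives arrays nearly the same distribution, which would hide a shift of all genes, and compresses low values and those near saturation. Of 45101 probe sets, 64 controls were left out, 34945 had 1 symbol in GEO's platform annotation, 932 several and 9160 none here. The probe set with the highest mean was kept per gene (18193 genes). Groups were compared with limma 3.58.1 (R 4.3.3; lmFit, eBayes, two-sided, Benjamini-Hochberg over all genes, threshold 0.05), checked on simulated data. Lists are described by counts and medians. Arrays have no read depth, and their number, 3 a group, limits precision. The labels call them biological repeats.

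The members and lists were chosen with earlier results of these data known. Genes named by rule were those past the threshold (none), the 6 largest differences each way, the 6 smallest p, the 4 widest and 4 narrowest SDs, stalk genes, paralog pairs, members known outside translation or in disease, the 2 smallest p of each list, and Nfkbia. All other members were described after their values were seen. Alternatives covered scaling, filters, probe choice, moderation, weights, covariates and each array left out.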

Additional observations from a re-analysis of the deposited data

How the results depend on the processing

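No ribosomal protein gene passed the adjusted threshold in limma under any of the 20 alternatives run. Over all genes, 1 gene (Nfkbia) was called lower with re-centred arrays, without dim genes, with the mean of all probe sets, without probe sets coded as shared, with trend and robust moderation, with array weights and at a threshold of 0.1, and 4 probe sets (all of Nfkbia) with every probe set as a feature. Leaving out 1 array gave 0 to 5 genes higher (5 without control 1) and 0 to 1 lower (1, Nfkbia, without deficient 3). At an unadjusted p of 0.05 without moderation, Rps20 counted as 1 higher and Rps26 as 1 lower. The replicate block gave 1 higher (Rpl39l), and leaving out 1 array gave 0 to 1 higher (Rpl39l without control 2). The share of all genes at this unadjusted level was not counted for the fits that gave these genes, so their counts stand without a background. The design speaks of 3 pairs, but the labels do not tie the repeat numbers to them, so the numbers were not taken as pairs: same-numbered arrays deviated together with r of 0.06, 0.24 and 0.20, and the block left the median over members at -0.023. That median ran from -0.035 to 0.010 when 1 array was left out and from -0.026 to 0.009 otherwise.

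Of 663 values of the 40 named genes under alternatives 606 kept sign and side, and 19 genes never changed sign. The cause of the changes was not tested. With the 3′/5′ gap as covariate the sign turned for Rpl27a (-0.046), Rps4l (0.015), Rps2 (0.026), Rps3a1 (0.003), Rpl22 (0.002), Rplp2 (0.034), Rpl22l1 (0.022), Rpl7 (0.063), Rps27 (0.045), Rps3 (0.016), Rpl11 (0.036), Rps19 (0.013) and Fau (0.010). With array weights it turned for Rpl22 (0.008), Rplp2 (0.016), Rpl22l1 (0.004), Rpl7 (0.026), Rps27 (0.006), Rps3 (0.001) and Rpl11 (0.018). With the choroid level as covariate it turned for Rpl7l1 (0.026), Rpl39 (-0.026) and Rps3 (0.003). With the mean of probe sets it turned for Rpl13a (-0.012), Rpl22 (0.020) and Rpsa (0.027), with repeated quantile normalization for Rpl13a (-0.009) and Rpl22 (0.001), and without coded probe sets for Rps18 (0.010), Rps3 (0.048) and Nap1l1 (0.077).

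With 1 array left out the difference crossed 0 for Rpl27a (-0.065 to 0.236), Rps4l (-0.229 to 0.010), Rps2 (-0.172 to 0.028), Rps3a1 (-0.136 to 0.007), Rpl38 (-0.014 to 0.006), Rpl22 (-0.022 to 0.011), Rplp2 (-0.028 to 0.036), Rpl3l (-0.114 to 0.015), Rpl22l1 (-0.086 to 0.026), Rpl7 (-0.071 to 0.065), Rpl39 (-0.029 to 0.056), Rps27 (-0.092 to 0.050), Rps3 (-0.053 to 0.016), Rpl11 (-0.077 to 0.041), Rps19 (-0.101 to 0.015) and Fau (-0.041 to 0.010). Nfkbia kept its sign throughout (-1.491 to -1.256 with 1 array left out), with an adjusted p of 0.00379 to 1.0 over its alternatives. Signals near the top and the bottom of the scale limit what a difference can show.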

Other observations

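A further 110 probe sets name a ribosomal protein together with other symbols and so name no single gene. Of these, 58 were higher and 52 lower in the IκBα-deficient group, with a median difference of 0.001 and a range of -0.315 to 0.212. Without IκBα-deficient array 2, 69 were higher and 41 lower, with a median of 0.019. Array 2 was the lowest of the 6 for 49 of them, and no other array was lowest for more than 20. Of the 73 with a mean of 12 or more, 42 were lowest on array 2.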
